A study of Rattus norvegicus with 40 samples.

Results

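The genes followed here carry calcium through each beat of the ventricular myocyte, together with Rrad, a small GTPase that restrains the L-type calcium channel. They were Ryr2, Casq2, Atp2a2, Pln, Slc8a1, Cacna1c, Rrad, Camk2d and Camk2g, and every probe set whose platform gene symbol was one of these 9 was taken. That gave 22 of the 31042 probe sets on the array (9 of 14217 named genes), from 1 for Rrad to 5 for Atp2a2. RNA came from cultured neonatal rat ventricular myocytes, heart muscle cells isolated from newborn rats, which were made ischemic in culture by coverslip hypoxia, in which a coverslip over the cells limits their oxygen and medium. The 10 groups were ischemia+reperfusion at 0, 10, 30, 60 and 120 min and ischemia alone at the same times, with 4 arrays a group, made up of 2 cell preparations in duplicate. The labels name no strain, drug or genetic change, and they state neither how long reperfusion lasted nor what the minutes count. They also do not say whether duplicates were separate cultures, so the p-values measure the spread between these samples, part of which may be technical.

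In a ventricular myocyte, depolarization opens the L-type channel, whose pore is Cacna1c, and the calcium that enters opens the ryanodine receptor Ryr2 in the sarcoplasmic reticulum. Casq2, calsequestrin, buffers calcium inside that store. Relaxation follows when the pump Atp2a2 (SERCA2), held back by phospholamban (Pln), returns calcium to the store and the exchanger Slc8a1 carries the rest out of the cell. Camk2d and Camk2g are subunits of the calmodulin-dependent kinase CaMKII, which phosphorylates both Ryr2 and Pln. Rrad belongs to the RGK GTPases, with Gem, Rem1 and Rem2, which bind the beta subunit of calcium channels and lower their current.

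Values below are quantile-normalized probe set intensities on the scale log2(intensity + 16), each difference is a difference on that scale, and ± gives limma's standard error (SE), with n = 2 preparations a group. A call is an adjusted p under 0.05 over the 18625 probe sets tested, which were those with a mean above 6.48. Of the 22 probe sets, 21 were tested. The exception was the Atp2a2 probe set 1375164_at, with group means from 4.73 at 120 min of ischemia+reperfusion to 5.85 at 60 min of ischemia. Levels are not compared between probe sets. Fewer myocytes and less RNA per myocyte cannot be told apart in these cultures.

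Markers of the labelled cell type were present: of 10 cardiomyocyte markers 9 passed the filter and were tested, and their summed intensity lay between 80630.5 and 94178.2 over all groups. All 8 fibroblast markers were tested too, with sums from 33042.8 to 46051.7, and sums of different markers are not compared. At 120 against 0 min, 1 of 9 cardiomyocyte markers was higher with ischemia+reperfusion (Myh7, 0.32, adjusted p = 0.036) and 0 of 9 moved with ischemia. With ischemia, 3 of 5 endothelial markers tested were higher (Pecam1, Tie1 and Tek), as were 1 of 8 fibroblast markers, 1 of 7 smooth muscle and pericyte markers and 1 of 3 neuron and glia markers. The summed endothelial intensity ran from 1817.56 to 2579.55 at 120 min of ischemia and from 1555.94 to 2056.41 at 0 min, and from 1837.42 to 2503.35 at 120 min of ischemia+reperfusion and from 1447.34 to 2059.52 at 0 min. With ischemia+reperfusion, 1 of 7 smooth muscle and pericyte markers was higher and 1 of 7 macrophage markers was lower. Of all probe sets tested, 12.9% were called at 120 against 0 min of ischemia, 6.45% higher and 6.48% lower. The share with ischemia+reperfusion was 7.17%, 3.5% higher and 3.68% lower. Of the listed markers, Vwf (endothelial), Itgam (macrophage), Snap25 and Nefl (neuron), Hbb and Alas2 (erythroid) were too dim to test. The other listed markers on the array passed the filter. They were 5 endothelial, 7 macrophage and leukocyte and 3 neuron and glia markers, with 0 erythroid markers. The part of these other cells in the results at 120 min was not tested.

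Several arrays stood apart from their groups. The 0 min ischemia array of preparation 1, duplicate 1, correlated with the remaining arrays by a median of 0.872, where each of those had 0.960 to 0.979. At 120 min, the inducible heat shock protein gene Hspa1a read 9.75 on duplicate 1 of preparation 2 with ischemia+reperfusion and 12.996 to 13.25 on the other 3 of that group. On duplicate 2 of preparation 2 with ischemia it read 13.15, and 9.62 to 10.19 on the other 3. At 10 min of ischemia+reperfusion, duplicate 1 of preparation 2, taken as deviations from the mean of all arrays, correlated better with the 0 min mean of its arm (0.43) than with the mean of its own group (0.11). On this measure the 120 min ischemia array of the pair had 0.09 with its own group and 0.29 with 60 min of ischemia+reperfusion. The ischemia+reperfusion array of the pair had 0.14 with its own group and 0.44 with 120 min of ischemia. Other 120 min arrays were also nearest to the other arm, by less: duplicate 2 of preparation 1 with ischemia+reperfusion (0.43 against 0.40) and duplicate 1 of preparation 2 with ischemia (0.41 against 0.40). No array was moved or dropped in the values below, and several results that rest on one of them are given without it too.

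Rrad had its lowest group means at 0 min in both arms, and the step up at 120 min of ischemia passed the test. Its 1 probe set (1367862_at), in the order preparation 1 duplicates 1 and 2, then preparation 2 duplicates 1 and 2, read 8.93, 8.93, 9.48 and 10.92 at 0 min of ischemia+reperfusion. It read 11.66, 11.34, 8.96 and 11.79 at 10 min in that arm, and 10.81, 10.59, 12.07 and 11.30 at 30 min. At 60 min the values were 11.46, 9.87, 11.39 and 10.54, and at 120 min 10.35, 10.70, 10.99 and 10.30. The 0 min group held 3 low arrays and 1 that read as high as the later ones, and each later group overlapped with it. In the ischemia arm Rrad read 8.31, 8.79, 9.32 and 8.86 at 0 min, then 10.07, 9.95, 11.15 and 11.04 at 10 min and 9.96, 10.03, 10.51 and 10.58 at 30 min. It read 10.24, 9.79, 10.42 and 10.58 at 60 min and 11.17, 11.20, 11.21 and 10.68 at 120 min. In this arm every array from 10 min onward lay above every 0 min array, without overlap.

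**Figure D1:**
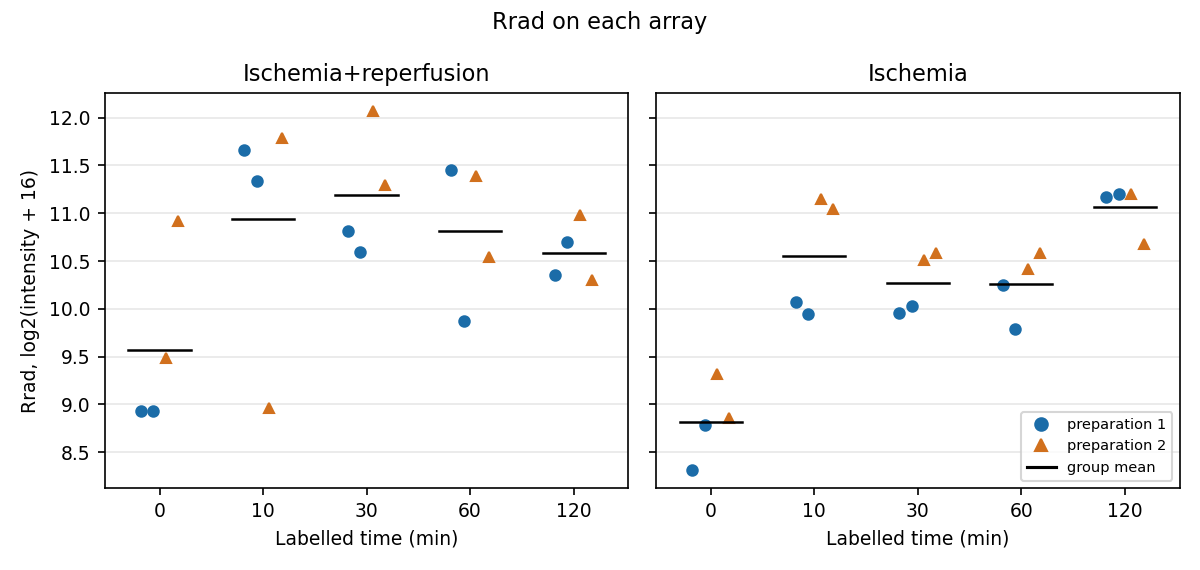
Rrad on each of the 40 arrays, as log2(intensity + 16), against labelled time in min, with ischemia+reperfusion on the left and ischemia on the right. Points are arrays, circles for preparation 1 and triangles for preparation 2, and the bar is the group mean. The ischemia arrays from 10 min onward all lie above the 0 min arrays, while 1 array at 0 min and 1 at 10 min of ischemia+reperfusion lie away from their groups.

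At 120 against 0 min of ischemia, Rrad rose by 2.25 ± 0.45, a 4.74-fold change (95% interval 1.26 to 3.23, adjusted p = 0.012). The preparations gave 2.64 and 1.85. Among all 18625 probe sets its rise ranked 14 by size in that comparison, and 12.9% of them were called (6.45% higher and 6.48% lower). Without the pair of 120 min arrays described above the change was 2.38 (adjusted p = 0.0083). The call held when each array was left out in turn, except for 10 min ischemia+reperfusion, preparation 2, duplicate 2, without which the adjusted p was 0.059.

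The other Rrad comparisons with 0 min did not pass, and within an arm all of them share the same 0 min arrays. In the ischemia arm they were 1.73 ± 0.45 at 10 min (adjusted p = 0.069), 1.45 at 30 min and 1.44 at 60 min (adjusted p = 0.20 for both). In the ischemia+reperfusion arm they were 1.37 at 10 min (adjusted p = 0.25), 1.63 at 30 min (0.13), 1.25 at 60 min (0.12) and 1.02 at 120 min (0.19). Whether several of these passed depended on a single array. Without duplicate 1 of preparation 2 at 10 min of ischemia+reperfusion, the changes with ischemia+reperfusion were 2.08 at 10 min (adjusted p = 0.0083), 1.63 at 30 min (0.031) and 1.25 at 60 min (0.040), and that of ischemia at 10 min was 1.73 (0.023). That array held an outlying Rrad value, 8.96, and of these comparisons only the 10 min one of its arm uses it. The other changes stayed at 1.63, 1.25 and 1.73, and their adjusted p-values fell through the estimate of spread that all groups share. Without duplicate 2 of preparation 2 at 0 min of ischemia+reperfusion, the change at 60 min in that arm was 1.61 (0.045). Without the 0 min ischemia array of preparation 2, duplicate 1, the change at 10 min of ischemia was 1.85 (0.048). Over the 5 times, the F test for Rrad gave an adjusted p of 0.16 with ischemia+reperfusion and 0.064 with ischemia.

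No difference in Rrad between the arms passed the test at any time. Ischemia+reperfusion minus ischemia was 0.74 ± 0.45 at 0 min, 0.38 at 10 min, 0.92 at 30 min, 0.55 at 60 min and -0.48 at 120 min, with adjusted p-values from 0.35 to 0.92. The intervals were wide, from -0.06 to 1.90 at 30 min and from -1.46 to 0.50 at 120 min. The change at 120 min differed between the arms by -1.22 ± 0.63 (ischemia+reperfusion minus ischemia, adjusted p = 0.52), and the F test over the 4 interaction terms gave 0.67. Both values at 120 min include the pair of arrays whose Hspa1a read like the other arm. Those arrays held the highest Rrad value of ischemia+reperfusion (10.99) and the lowest of ischemia (10.68) at that time. With the pair in place, these values cannot decide whether Rrad differs between the arms at 120 min. In order of mean level, Rrad was highest at 30 min of ischemia+reperfusion (11.19 ± 0.69, SD over n = 2 preparations), followed by 120 min of ischemia (11.06 ± 0.18), 10 min (10.94 ± 0.80), 60 min (10.81 ± 0.21) and 120 min (10.58 ± 0.08) of ischemia+reperfusion. Then came 10 min (10.55 ± 0.77), 30 min (10.27 ± 0.39) and 60 min (10.26 ± 0.34) of ischemia, then 0 min of ischemia+reperfusion (9.56 ± 0.90) and 0 min of ischemia (8.82 ± 0.38). Only 60 and 120 min of ischemia+reperfusion, among neighbours in this order, lay farther apart (0.23) than the larger of their SDs.

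The 5 genes whose 20 averages followed Rrad most closely, of 10483 genes, were Slc25a36, a mitochondrial nucleotide carrier (Pearson r = 0.92), Slc6a8, the creatine transporter (0.92), Ccng2, cyclin G2 (0.90), Kcnk3, a background potassium channel (0.89), and Ppp1r3b, a glycogen-targeting phosphatase subunit (0.89). These are descriptions over averages that share arrays and preparations. Without the outlying 0 min array the values lay between 0.81 and 0.92.

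The relatives of Rrad that could be tested also rose at 120 min of ischemia. The RGK list, which includes Rrad, had 4 genes on the array and 3 tested. All 3 were higher at 120 against 0 min of ischemia, beside 12.9% of all probe sets called, 6.45% higher. Their median change was 1.48, against -4.3e-05 over all probe sets tested. With ischemia+reperfusion 1 of the 3, Gem, was called at 120 min, beside 7.17% of all probe sets, 3.5% higher. The median change was 1.02. Both Rem2 probe sets were too dim to test. Gem, which like Rrad is known as an inducible inhibitor of calcium channels, read 9.96, 10.12, 9.46 and 10.14 at 120 min of ischemia and 8.10, 8.62, 8.87 and 8.18 at 0 min, in the array order given above. The groups did not overlap, and Gem rose by 1.48 ± 0.23 (2.79-fold, adjusted p = 0.0053). With ischemia+reperfusion it read 9.83, 10.25, 9.51 and 9.67 at 120 min and 8.09, 8.61, 8.20 and 8.74 at 0 min, again without overlap. In that arm Gem rose by 1.40 at 30 min (adjusted p = 0.019), 1.57 at 60 min (0.0086) and 1.41 at 120 min (0.0099). The 30 min call was lost on the deposited scale (1.32, 0.054) and in 1 of 40 fits that left out 1 array, 10 min ischemia+reperfusion, preparation 2, duplicate 2 (0.081).

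Rem1, another inhibitor of the family, read 8.55, 8.50, 8.37 and 8.28 at 120 min of ischemia and 7.75, 8.06, 7.97 and 7.70 at 0 min. It rose by 0.56 ± 0.11 (adjusted p = 0.011), and its dimmer probe set 1396158_at rose by 0.85 ± 0.17 (0.013). Without the preparation block the adjusted p-values of the Rem1 probe sets were 0.11 and 0.13, and on the deposited scale the value of the brighter one was 0.32 (0.098). Both preparations showed the rise, 0.62 and 0.50. With ischemia+reperfusion the values at 120 min were 0.29 (adjusted p = 0.12) and 0.37 (0.22) on the brighter and the dimmer Rem1 probe set. The promoters of Rem1 and of Casq2, the member that was lower at that time, are shown because these are genes with calls in opposite directions that have an entry among the RefSeq promoter windows. Atp2a2, called higher at that time on its dimmest tested probe set, also has an entry and is not shown. The Casq2 call held in 11 of 40 fits that left out 1 array. Whether the promoter sequences bear on the changes was not tested. Each window runs from 250 bases before to 50 bases after the annotated start, in build GRCr8.
Rem1, chr3:161563788-161564087, plus strand: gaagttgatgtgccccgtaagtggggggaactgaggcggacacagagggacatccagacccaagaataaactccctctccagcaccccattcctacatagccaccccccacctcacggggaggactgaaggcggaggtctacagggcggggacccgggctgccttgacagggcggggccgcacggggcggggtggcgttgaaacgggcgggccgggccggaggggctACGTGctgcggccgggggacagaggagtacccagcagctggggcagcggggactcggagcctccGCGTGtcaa
Casq2, chr2:192214306-192214605, plus strand: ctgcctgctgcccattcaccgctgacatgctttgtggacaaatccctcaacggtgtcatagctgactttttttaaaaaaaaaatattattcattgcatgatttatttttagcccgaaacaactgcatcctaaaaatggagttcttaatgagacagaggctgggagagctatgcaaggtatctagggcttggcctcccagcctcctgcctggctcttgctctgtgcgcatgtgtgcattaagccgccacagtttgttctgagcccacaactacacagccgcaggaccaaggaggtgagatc
Capitals mark matches to the hypoxia response element cores ACGTG and GCGTG in Rem1. The window was searched on both strands for these, for TGACG (part of a cAMP response element) and for TGANTCA, the AP-1 word. TATAAA, a core promoter word, and AGATAA, bound by cardiac zinc finger factors, were also searched. ACGTG and TGACG can overlap, in which case both are counted. Rem1 held ACGTG 23 bases before the start and GCGTG 41 bases after it, both on the plus strand, and Casq2 held none of the 6 words. Among all 33469 promoters, 19.3% held ACGTG, 29.7% GCGTG, 21.2% TGACG, 7.33% TGANTCA, 14.2% TATAAA and 11.6% AGATAA. Of the 9 members, 8 had an entry, and the matches were 1 GCGTG each in Ryr2 and Atp2a2 and 1 TGACG each in Slc8a1 and Cacna1c. Rrad and Gem are named only.

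**Figure D2:**
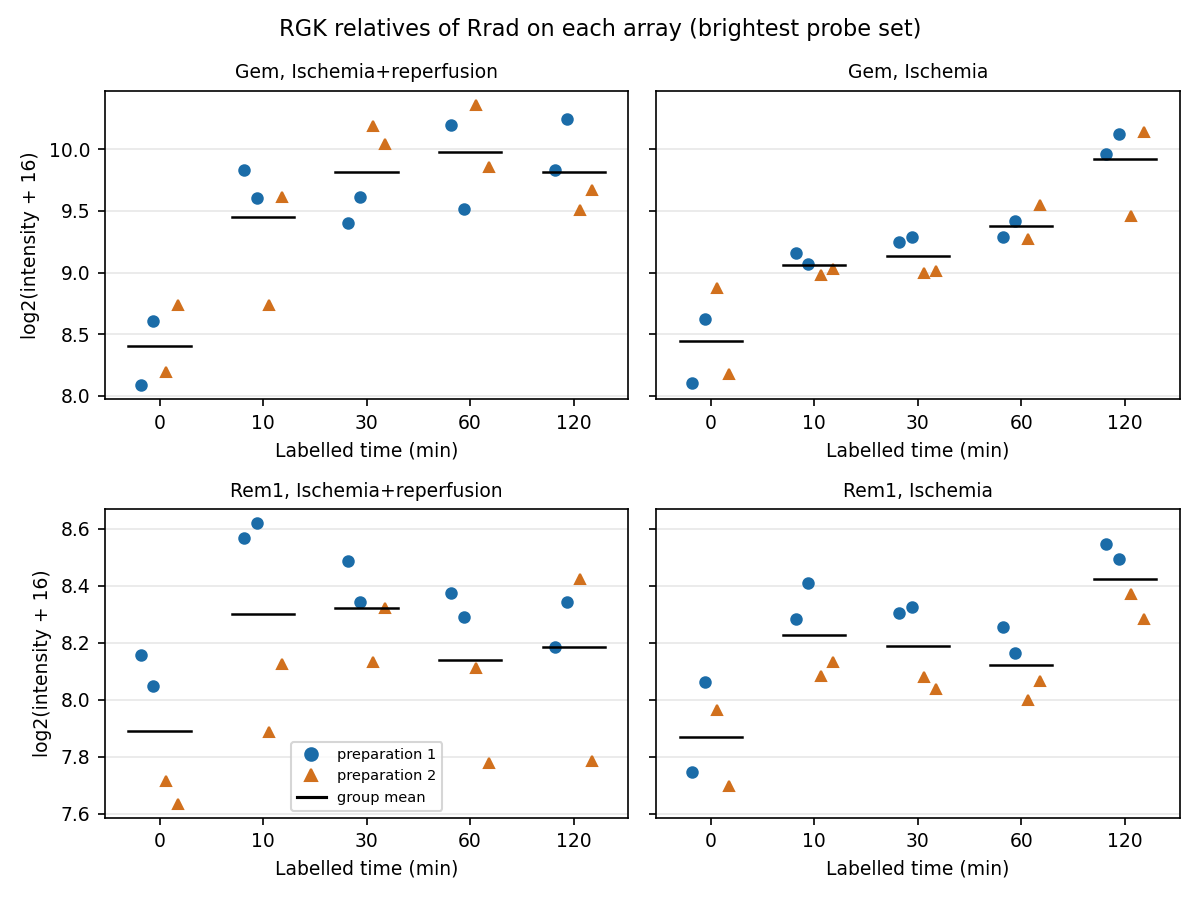
Gem (top) and Rem1 (bottom) on each array, as log2(intensity + 16), against labelled time in min, with ischemia+reperfusion on the left and ischemia on the right. Circles are preparation 1, triangles preparation 2 and bars group means. The Gem arrays at 120 min lie above those at 0 min in both arms, and the Rem1 arrays do so with ischemia.

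The count of calls among the members was small everywhere. At 120 against 0 min of ischemia, 3 of 21 member probe sets were called, Rrad and the Atp2a2 probe set 1391771_at higher and the Casq2 probe set 1387401_at lower. That is near the 12.9% of all probe sets. The median member change was -0.05. At 60 min, 1 of 21 was lower with ischemia+reperfusion than with ischemia (Camk2g 1381936_at), beside 5.38% of all probe sets called, 3.14% higher and 2.24% lower. No member was called by limma in any other comparison. The counts of members at an unadjusted p under 0.05 are set below beside the share of all probe sets under the same threshold, with the share called given separately.

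At 120 against 0 min of ischemia, 9 of 21 members had an unadjusted p under 0.05, beside 31.8% of all probe sets. With ischemia+reperfusion the members were 1 of 21 at 10 min (11.3% of all), 1 at 30 min (14.8%), 2 at 60 min (22.9%) and 9 at 120 min (24%). The shares of all probe sets called in that arm were 0.0376% at 10 min, 0.784% at 30 min, 4.69% at 60 min (2.19% higher and 2.5% lower) and 7.17% at 120 min (3.5% higher and 3.68% lower). With ischemia the members were 4 at 10 min (22% of all), 5 at 30 min (15.6%) and 6 at 60 min (15.8%), and 1.98%, 0.0966% and 0.129% of all probe sets were called.

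Between the arms the members under 0.05 were 5 at 0 min (18.2% of all), 1 at 10 min (9.99%), 2 at 30 min (15.6%), 5 at 60 min (24.1%) and 0 at 120 min (7.16%). The shares called at 0, 10, 30 and 120 min were 0.333%, 0%, 0.532% and 0%. The 0% at 120 min was found with every array kept, among them the pair whose Hspa1a read like the other arm. Without the pair 667 probe sets were called there. Among them was the Ryr2 probe set 1382775_at, with a difference of -0.97 (adjusted p = 0.044) without the pair and -0.39 (0.83) with it. The pair was picked for reading like the other arm, so leaving it out can by that choice alone widen the difference between the arms. These calls therefore cannot decide whether the arms differ at 120 min. The interaction terms at 10, 30, 60 and 120 min had 1, 0, 2 and 0 members under 0.05 (12.3%, 5.76%, 10.7% and 10.4% of all) and 0% of all probe sets called. At 120 min of ischemia+reperfusion the members under 0.05 were 3 against 60 min (11.1% of all, 0% called) and 3 against 10 min (21.1%, 3.09% called). At 120 min of ischemia they were 2 against 60 min (21.5%, 2.74% called) and 5 against 10 min (18.2%, 0.698% called). The F tests had 3 members under 0.05 with ischemia+reperfusion (24.3%, 3.61% called), 7 with ischemia (26.5%, 4.57% called) and 1 for the interaction (11.3%, 0.00537% called).

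**Figure D3:**
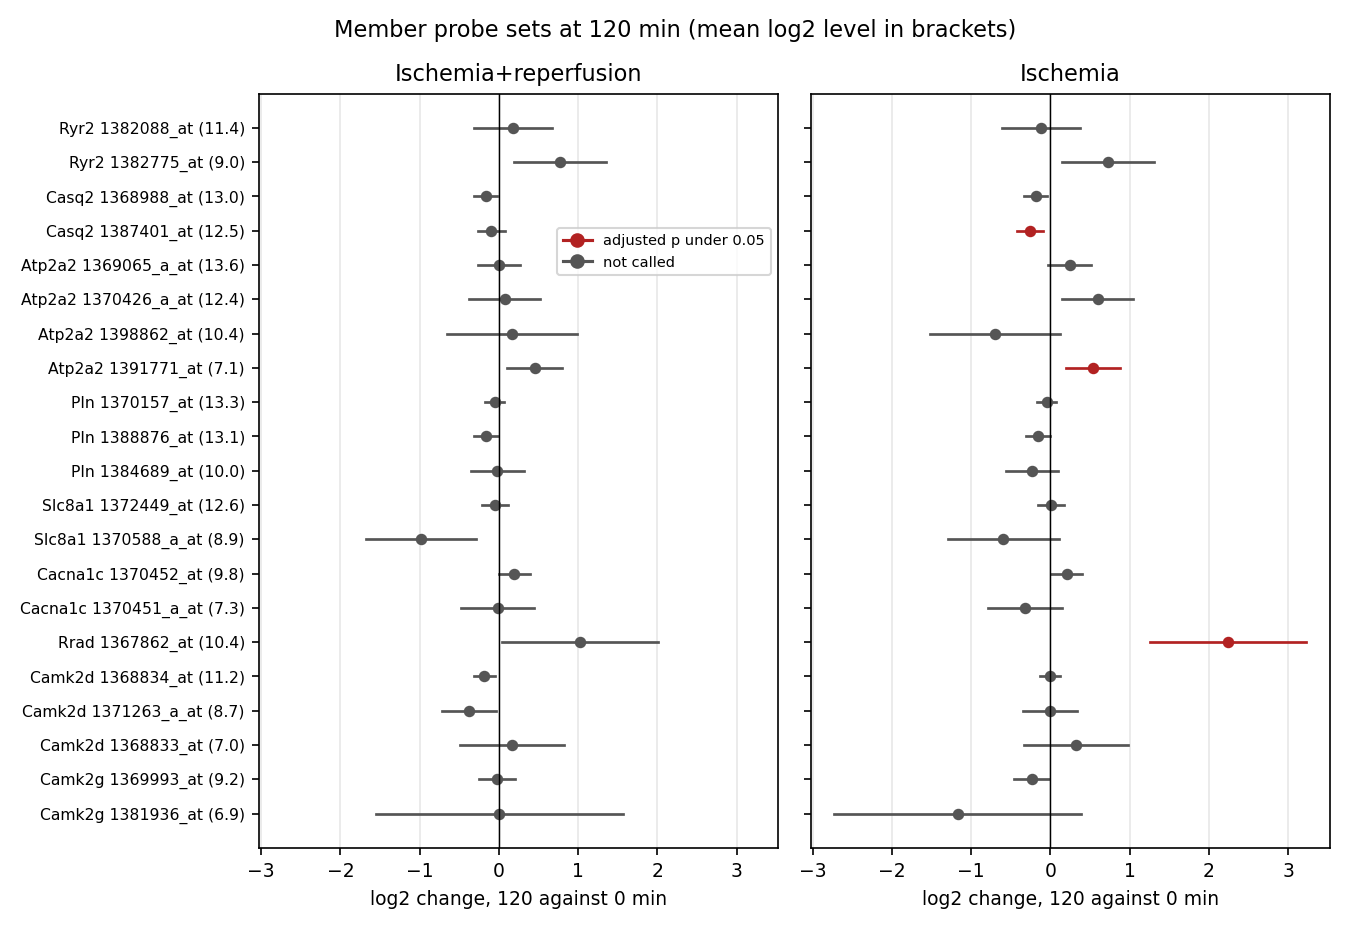
Change of each of the 21 tested member probe sets at 120 against 0 min, in log2 units, with ischemia+reperfusion on the left and ischemia on the right. Dots are limma estimates, lines their 95% intervals, red marks an adjusted p under 0.05 and the number in brackets is the mean log2 level. Rrad has the largest estimate in both panels, 1.02 with ischemia+reperfusion and 2.25 with ischemia.

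In the release channel and its store, the 2 Casq2 probe sets were lowest at 120 min of ischemia. Probe set 1387401_at read 12.38, 12.36, 12.28 and 12.17 at 120 min and 12.47, 12.56, 12.56 and 12.60 at 0 min of ischemia, without overlap. It fell by 0.25 on the log2 scale (SE 0.07, adjusted p = 0.049, 1.19-fold lower), with changes of -0.15 and -0.36 in the preparations. The call is at the edge: it held in 11 of 40 fits that left out 1 array, with adjusted p-values from 0.033 to 0.073, and was lost without the block (0.063) and without the pair of 120 min arrays (-0.22, 0.053). With ischemia+reperfusion its change was -0.09 ± 0.07 (adjusted p = 0.49). The brighter probe set 1368988_at read 12.88, 12.89, 12.88 and 12.72 at 120 min and 12.90, 13.03, 13.13 and 13.04 at 0 min of ischemia, with a difference of -0.18 (adjusted p = 0.084). With ischemia+reperfusion it read 12.90, 12.99, 12.83 and 12.90 at 120 min and 13.06, 13.10, 13.11 and 13.03 at 0 min (-0.17, adjusted p = 0.14). Neither difference was called, and the groups did not overlap in either arm. Over the 20 averages the probe sets correlated by 0.55, as a description.

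**Figure D4:**
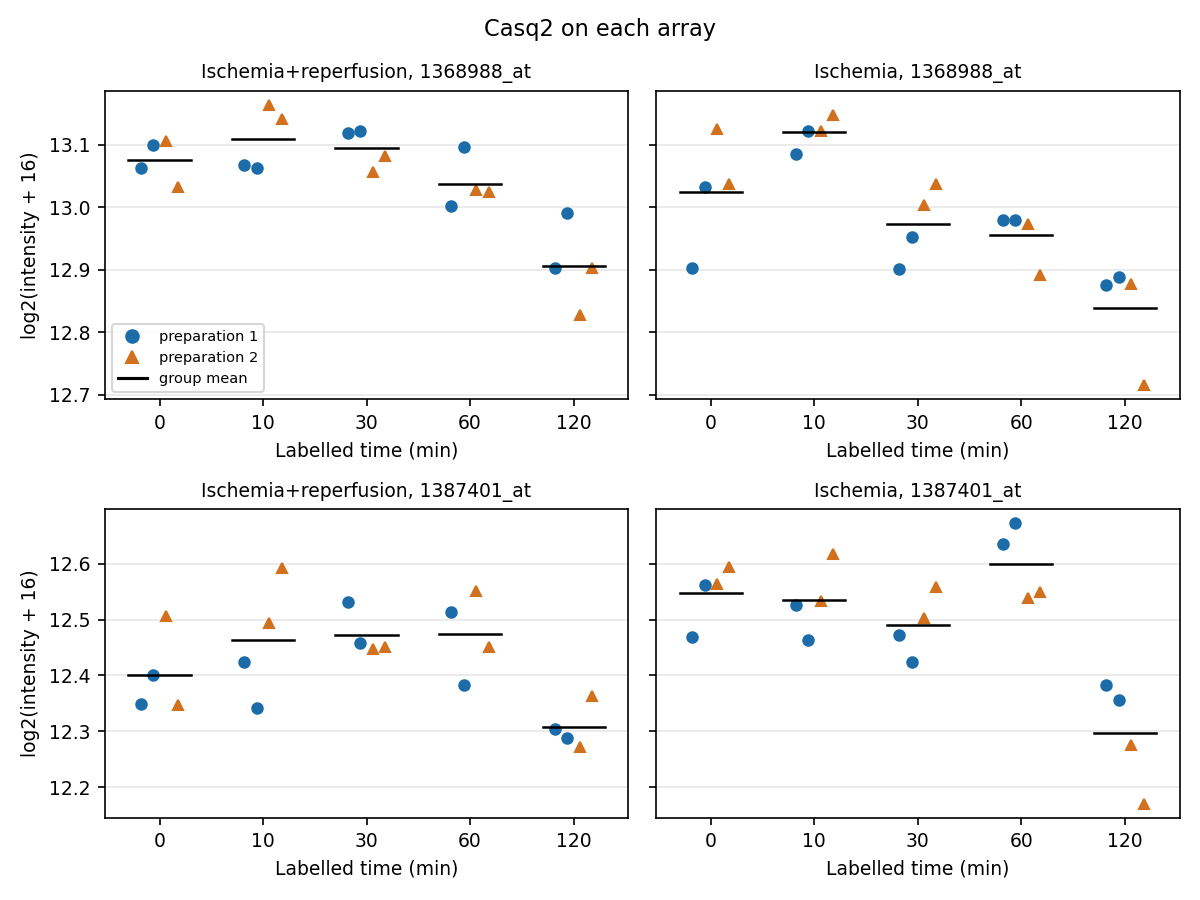
The 2 Casq2 probe sets on each array, as log2(intensity + 16), against labelled time in min, with ischemia+reperfusion on the left and ischemia on the right. Circles are preparation 1, triangles preparation 2 and bars group means. The 120 min group mean is the lowest of the 5 in all 4 panels, and for 1387401_at with ischemia it is 12.30.

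Ryr2, the release channel, gave different readings on its 2 probe sets. The brighter, 1382088_at, had group means from 11.21 to 11.58 and changes at 120 min of 0.18 with ischemia+reperfusion and -0.11 with ischemia. The dimmer, 1382775_at, had changes of 0.77 ± 0.26 (adjusted p = 0.10) and 0.73 ± 0.26 (0.090). It read 9.13, 9.05, 10.37 and 9.11 at 120 min of ischemia+reperfusion and 8.62, 7.90, 8.70 and 9.33 at 0 min, so 1 array stood well above the other 3. With ischemia it read 10.10, 9.74, 10.22 and 9.14 at 120 min and 8.85, 9.18, 9.03 and 9.24 at 0 min. The array far above its group and the array far below are the 2 of the 120 min pair, and without them the changes were 0.46 (adjusted p = 0.25) with ischemia+reperfusion and 1.00 (0.017) with ischemia.

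For calcium reuptake, the Atp2a2 readings at 120 min of ischemia turned on 1 array. On the 0 min ischemia array that stood apart, probe set 1369065_a_at read 12.45, where the other 39 arrays lay from 13.52 to 13.75. Probe set 1370426_a_at read 10.31 there and 12.27 to 12.75 elsewhere, and 1398862_at went the other way, 13.52 against 9.96 to 10.73. The change of 1398862_at at 120 min of ischemia was -0.70 (adjusted p = 0.22) with that array and 0.11 (0.59) without it. Over the 20 averages 1369065_a_at and 1398862_at correlated by -0.75, and by 0.69 without that array. The called probe set 1391771_at read 7.46, 7.29, 7.53 and 6.98 at 120 min of ischemia and 6.11, 6.95, 6.92 and 7.13 at 0 min, where the groups overlap. It rose by 0.54 ± 0.16 (adjusted p = 0.046), and without the outlying array the change was 0.33 (0.15). With ischemia+reperfusion its change was 0.45 ± 0.16 (0.11). The brightest probe set, 1369065_a_at, had differences at 120 min of 0.0011 with ischemia+reperfusion and 0.24 with ischemia (adjusted p = 0.20). Without the outlying array the ischemia value was -0.039. The 5 genes closest to it, Rab7a, Pcmtd1, Chpt1, Gja1 and Rilpl1, had r from 0.96 to 0.97, and 0.65 to 0.86 without that array.

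**Figure D5:**
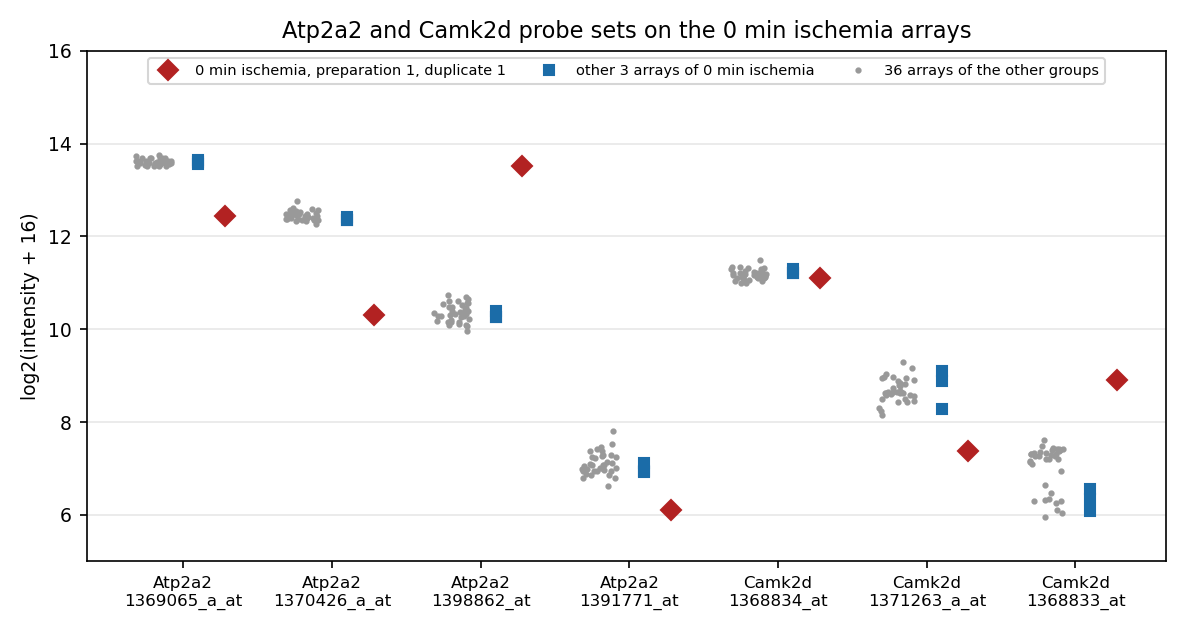
Tested Atp2a2 and Camk2d probe sets as log2(intensity + 16). The red diamond is the 0 min ischemia array of preparation 1, duplicate 1, blue squares are the other 3 arrays of that group and grey dots the 36 arrays of the other groups. The diamond lies below the rest for 3 of 4 Atp2a2 probe sets and above the rest for 1398862_at, at 13.52.

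Pln, the inhibitor of the pump, was bright and varied little between groups on its 2 brightest probe sets. Its probe sets 1370157_at and 1388876_at had group means from 13.25 to 13.35 and from 12.99 to 13.18. The changes at 120 min were -0.06 and -0.17 with ischemia+reperfusion and -0.05 and -0.15 with ischemia, with adjusted p-values from 0.16 to 0.60. In 1 of 11 alternatives, the deposited scale, 1388876_at was called lower at 120 min of ischemia (adjusted p = 0.036). The median of all probe sets shifted by -0.22 on that scale in this comparison. The third, 1384689_at, had group means from 9.82 at 120 min to 10.24 at 30 min of ischemia, with 10.06 at 0 min in that arm. With ischemia+reperfusion its means were 9.94 at 0 min and 9.92 at 120 min. It was higher in preparation 2 in 8 of 10 groups, by a median of 0.37.

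Slc8a1, the sodium-calcium exchanger, also split by probe set. The bright one, 1372449_at, had group means from 12.53 to 12.71, and its changes at 120 min were -0.05 with ischemia+reperfusion and 0.01 with ischemia. The dimmer, 1370588_a_at, read 8.11, 8.38, 7.58 and 8.17 at 120 min of ischemia+reperfusion and 8.83, 8.44, 9.48 and 9.42 at 0 min, without overlap. The difference was -0.98 ± 0.32 and did not pass (adjusted p = 0.087), with -0.39 and -1.58 in the preparations. With ischemia it read 8.31, 8.40, 7.91 and 8.95 at 120 min and 9.43, 9.43, 7.81 and 9.27 at 0 min, a difference of -0.59 (0.22). Cacna1c, the channel pore that Rrad restrains, had changes at 120 min of 0.19 (adjusted p = 0.21) with ischemia+reperfusion and 0.21 (0.14) with ischemia on 1370452_at. On the dimmer 1370451_a_at they were -0.02 and -0.32.

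For CaMKII, the single call between the arms was on a dim Camk2g probe set. At 60 min, 1381936_at read 4.01, 4, 6.67 and 5.63 with ischemia+reperfusion and 8.56, 7.78, 7.81 and 7.53 with ischemia, a difference of -2.84 ± 0.71 (adjusted p = 0.044). The groups did not overlap, but 1 of the low arrays was at the floor of 0 intensity and another just above it. The preparations gave -4.16 and -1.52. The typical SD between duplicates of this probe set was 1.16, the call held in 24 of 40 fits that left out 1 array, and it was lost without the pair of 120 min arrays (0.071) and without the block (0.053). The bright Camk2g probe set 1369993_at differed by -0.31 ± 0.10 at 60 min (adjusted p = 0.097).

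Camk2d, the main cardiac form, read apart between the arms at 30 and 60 min on 1 of its 3 probe sets, the dimmest, 1368833_at, though neither difference passed. At 30 min it read 7.42, 7.29, 7.34 and 7.34 with ischemia+reperfusion and 6.31, 6.05, 6.25 and 6.65 with ischemia (1.03 ± 0.30, adjusted p = 0.13). At 60 min it read 7.40, 7.28, 7.45 and 7.61 with ischemia+reperfusion and 6.11, 6.35, 6.48 and 6.30 with ischemia (1.12 ± 0.30, 0.054). The arms did not overlap at either time. At 120 min the ischemia arrays read 7.17, 7.20, 7.48 and 7.36, and the arms differed by -0.05. This probe set read 8.90 on the outlying 0 min ischemia array, above all other arrays, and without that array the differences were 1.03 (0.040) at 30 min and 1.12 (0.014) at 60 min. Its change at 120 against 0 min of ischemia was 0.33 ± 0.30 (0.49) with that array and 1.03 (0.010) without it. The differences of the other Camk2d probe sets did not pass either: 1368834_at differed by 0.13 (0.30) at 30 min and -0.02 (0.86) at 60 min and 1371263_a_at by 0.15 (0.70) and -0.04 (0.92). The bright probe set 1368834_at differed by -0.18 ± 0.06 at 120 against 0 min of ischemia+reperfusion (adjusted p = 0.083), and by -0.0070 with ischemia. Without the pair of 120 min arrays the ischemia+reperfusion value was -0.23 (0.029).

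The wider calcium machinery was read through 80 other genes in 9 lists, of which 59 were tested, each by its brightest probe set. Counts given below for a single list also include any members in it, as Cacna1c among the channel subunits and Slc8a1 among the transport genes. At 120 against 0 min of ischemia, 4 were higher and 1 was lower (8.47%, against 12.9% of all probe sets), and with ischemia+reperfusion 2 were higher and 1 lower (5.08%, against 7.17%). The median changes were 0.04 and 0.01, against medians of -4.3e-05 and -0.02 over all probe sets. Besides Gem and Rem1, the channel subunit Cacna2d1 fell by 0.48 on the log2 scale with ischemia (adjusted p = 0.038). That call was lost without the block (0.10) and with no filter (0.061), and in 6 of 40 fits that left out 1 array (up to 0.13). It was 1 of 8 channel subunits tested, and 2 dimmer probe sets of the beta subunit Cacnb2 also fell, by 0.28 and 0.86. Orai2, a store-operated channel subunit, rose by 0.47 ± 0.09 with ischemia (0.011), and Orai3 by 0.28 ± 0.08 (0.042), 2 of 10 genes in that list. On the deposited scale, where the median of all probe sets shifted by -0.22 in this comparison, the values were 0.23 (0.23) for Orai2 and 0.06 (0.68) for Orai3.

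With ischemia+reperfusion at 120 min, the plasma membrane calcium pump Atp2b1 rose by 0.44 ± 0.10 (adjusted p = 0.028), 1 of 5 transport genes tested, and the receptor-operated channel Trpc6 fell by 1.01 on the log2 scale (SE 0.22, 0.027), 1 of 10 in its list. Atp2b1 had an adjusted p of 0.078 without the block and 0.29 on the deposited scale. At 60 min in that arm Gem, Atp2b1 and the transcription factor Nfatc1 were higher (1.57, 0.43 and 0.66) and Orai3 and Trpc6 lower (-0.36 and -1.03). These were 8.47% of the 59, beside 4.69% of all probe sets called (2.19% higher and 2.5% lower). Nfatc1 was also higher with ischemia+reperfusion than with ischemia at 60 min, by 0.79 ± 0.14 (adjusted p = 0.016). It was the only one of the 59 called between the arms by its brightest probe set. At 60 min that is 1.69%, beside 5.38% of all probe sets called. A dimmer probe set of the calcineurin gene Ppp3ca was higher there too, by 0.30 ± 0.07 (0.029). The brightest Ppp3ca probe set was not called (0.25, 0.098). No gene of the ryanodine receptor complex (14, with Ryr2 and Casq2) was called at 120 min in either arm by its brightest probe set. The same held for SERCA regulators (5, with Atp2a2 and Pln) and for CaMKII and calmodulin (4, with Camk2d and Camk2g). It also held for calcineurin and NFAT (12) and the mitochondrial uniporter (7). Dimmer probe sets of Sri, Asph, Tmem38b, Ppp3cb and Letm1 were called lower at 120 min of ischemia, by 0.58, 0.36, 0.34, 0.43 and 0.26. The brightest probe sets of these genes, not called, changed by 0.10, 0.06, -0.01, -0.09 and -0.22. Another Asph probe set changed by 0.23. Of every tested probe set, 4 of 26 were lower in the ryanodine receptor list, Casq2 among them. For calcineurin it was 1 of 18 and for the uniporter 1 of 11, beside 6.48% of all tested. With ischemia+reperfusion the same probe sets of Asph and Tmem38b fell by 0.44 (adjusted p = 0.025) and 0.49 (0.016). The other Asph probe sets changed by 0.40 and 0.25, uncalled. In this arm 2 of 26 and 1 of 11 were lower in the ryanodine receptor and uniporter lists, beside 3.68%. Of the dimmer Atp2b1 probe sets, 1 rose by 1.98 ± 0.46 at 120 min of ischemia (0.021) and another by 0.53 ± 0.14 at 120 min of ischemia+reperfusion (0.043).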

How the data were processed

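Total RNA of cultured rat ventricular myocytes was labelled as biotinylated cRNA and hybridized to 40 Affymetrix arrays, per the labels' protocols. The deposited values are linear intensities per probe set, between -1725 and 17404, with 15.8% negative and array medians from 101 to 171. The software that made them is not given in the sources used here. Genes were named from probe sets with 1 symbol in the platform annotation (20826 of 31042 probe sets, with 436 having several and 9780 none). The gene members, lists, naming rule and tests were chosen with earlier results of these data known.

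Intensities were quantile-normalized, floored at 0 and transformed as log2(value + 16). The test kept the 18625 probe sets whose mean passed the 40th percentile, 6.48 (73.2 in intensity units). Duplicates were averaged to 20 values. All 10 groups were fitted with limma 3.58.1 in R 4.3.3 with preparation as a block, which the labels mark as shared. Preparation differences of groups correlated by a median of 0.18, above 0.1 in 34 of 45 pairs. Tests were moderated and two-sided, with Benjamini-Hochberg adjustment within each comparison and calls at 0.05. The median SE was 0.118 log2 units and the median 95% half-width 0.258, a precision set by how few arrays there are. The code was tested on simulated data. Named genes were all member probe sets, up to 3 called genes a list, and 5 nearest to Rrad and Atp2a2 by correlation. For lists, the brightest tested probe set stood for a gene. Promoters came from RefSeq windows of GRCr8. Alternatives were the preparation block, all 40 arrays with an estimated duplicate correlation, the deposited scale, median scaling, pseudocounts of 4 and 64, other filters, and leaving out arrays.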

Additional observations from a re-analysis of the deposited data

Results flagged for a closer look

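An array was picked out where it lay far from the other 3 of its group, and 22 of 210 groups of member values had one. Chance picks out about 1 in 20 groups. The value of the array is given first and the range of the other 3 after it, on the log2(intensity + 16) scale.

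For Rrad, duplicate 1 of preparation 2 at 10 min of ischemia+reperfusion read 8.96 (11.34 to 11.79), and the 120 min ischemia array of preparation 2, duplicate 2, read 10.68 (11.17 to 11.21). That ischemia array was also the lowest of its group for Casq2 1368988_at at 12.72 (12.88 to 12.89) and Cacna1c 1370452_at at 9.76 (9.99 to 10). Its counterpart, duplicate 1 of preparation 2 at 120 min of ischemia+reperfusion, read 10.37 (9.05 to 9.13) for Ryr2 1382775_at.

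The 0 min ischemia array of preparation 1, duplicate 1, read 12.45 (13.57 to 13.64) for Atp2a2 1369065_a_at and 10.31 (12.34 to 12.42) for 1370426_a_at. It read 13.52 (10.27 to 10.39) for Atp2a2 1398862_at and 8.9 (6.09 to 6.56) for Camk2d 1368833_at. That Camk2d probe set also read 6.31 (7.27 to 7.4) on 1 array at 0 min of ischemia+reperfusion and 5.96 (7.27 to 7.43) on 1 at 10 min of ischemia.

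Other Atp2a2 1370426_a_at values were 12.75 (12.27 to 12.35) at 0 min and 12.56 (12.38 to 12.41) at 30 min of ischemia+reperfusion. Pln 1370157_at read 13.43 (13.25 to 13.26) at 30 min and Pln 1388876_at 12.91 (13.07 to 13.08) at 60 min of ischemia+reperfusion. Casq2 1387401_at read 12.53 (12.45 to 12.46) at 30 min of ischemia+reperfusion, and Casq2 1368988_at 12.89 (12.97 to 12.98) at 60 min of ischemia. Cacna1c 1370451_a_at read 6.91 (7.43 to 7.47) at 10 min of ischemia+reperfusion, and Slc8a1 1370588_a_at 7.81 (9.27 to 9.43) at 0 min of ischemia. Camk2g 1381936_at read 5.86 (7.15 to 7.31) at 10 min of ischemia+reperfusion, 8.55 (7.44 to 7.59) at 0 min and 5.6 (6.81 to 7.05) at 120 min of ischemia.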

How the results depend on the processing

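Rrad at 120 against 0 min of ischemia kept its call under all 11 alternatives other than single left-out arrays, from 2.02 to 2.38. Apart from probe sets that a filter removed, the cause of the changes below was not tested. Counts are of member probe sets called, beside 3 at 120 min of ischemia, 1 between the arms at 60 min and 0 elsewhere. At 120 min of ischemia the count was 2 with median scaling, a pseudocount of 4, no filter or a filter at the 60th percentile, 3 with a pseudocount of 64 and 4 with 40 arrays, without the pair or without the outlying array, with Rrad called in each and the others varying. Without the replicate block (the pairing by preparation) they were 1 at 120 min of ischemia and 0 between the arms at 60 min, and all probe sets called numbered 1484 (2408 with it) and 584 (1002). With 40 arrays and an estimated duplicate correlation (0.08) they were 1 at 30 min and 3 at 120 min of ischemia+reperfusion, 1 at 10 min of ischemia, 4 between the arms at 60 min, 2 for 120 against 10 min of ischemia+reperfusion, 1 and 2 for 120 against 60 and 10 min of ischemia, and 2 and 3 in the F tests of ischemia+reperfusion and ischemia. All calls were then 2467 (1336) at 120 min of ischemia+reperfusion and 2239 between the arms at 60 min. On the deposited scale the member counts were 5 at 120 min of ischemia, 2 between the arms at 60 min (2176 in all), 1 for 120 against 10 min of ischemia+reperfusion and 4 of ischemia. With median scaling they were 1 at 120 min of ischemia+reperfusion, 6 between the arms at 60 min (1668 in all) and 1 for 120 against 10 min of ischemia+reperfusion. No filter gave 1 at 120 min of ischemia+reperfusion and 0 between the arms at 60 min, a pseudocount of 4 gave 0 there, a pseudocount of 64 gave 1 for 120 against 60 min of ischemia, and a filter at the 60th percentile gave 0 between the arms at 60 min and 1 for 120 against 60 and against 10 min of ischemia. The filter at the 60th percentile removed the called probe sets Camk2g 1381936_at and Atp2a2 1391771_at, at percentiles 45.8 and 48.2. Neither was tested under it. The pair of 120 min arrays was picked because its Hspa1a read like the other arm. Without the pair the member counts were 1 at 120 min of ischemia+reperfusion, 0 and 1 between the arms at 60 and 120 min (667 in all at 120 min, where 0 were called with the pair), 1 for 120 against 10 min of ischemia and 2 in the F test of ischemia. Without the outlying 0 min array they were 1 and 2 between the arms at 30 and 60 min, 2 for 120 against 60 min of ischemia and 1 in its F test. Without both sets, chosen after seeing the data, they were 1 and 5 at 120 min of ischemia+reperfusion and of ischemia, 1 between the arms at 30 and at 120 min, 1 for 120 against 60 and against 10 min of ischemia and 2 in its F test. Leaving out 1 array gave 0 to 1 at 10, 30 and 60 min and 0 to 2 at 120 min of ischemia+reperfusion, 0 to 1 at 10 min and 1 to 5 at 120 min of ischemia, 0 to 1 and 0 to 3 between the arms at 30 and 60 min, 0 to 1 for 120 against 10 min of ischemia+reperfusion, 0 to 2 for 120 against 60 min of ischemia, and 0 to 1 in the F tests of both arms.

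The changes of all 21 member probe sets at 120 against 0 min were followed, and those that changed sign were all uncalled with every array kept. Atp2a2 1369065_a_at was -0.12 on the deposited scale and -0.080 with median scaling with ischemia+reperfusion (-0.028 to 0.029 with 1 array left out), and with ischemia -0.039 without the outlying array and -0.040 without both sets (-0.039 to 0.52). Slc8a1 1372449_at with ischemia was -0.22 on the deposited scale, -0.0017 with median scaling and -0.027 without the outlying array (-0.030 to 0.042), and with ischemia+reperfusion -0.12 to 0.019 with 1 array left out. Cacna1c 1370452_at with ischemia was -0.027 on the deposited scale. Camk2d 1368834_at with ischemia was 0.042 without the pair and 0.019 without both sets (-0.056 to 0.042), and Camk2g 1369993_at with ischemia+reperfusion was -0.074 to 0.020 with 1 array left out. With ischemia+reperfusion, Atp2a2 1370426_a_at was -0.056 on the deposited scale and -0.017 with median scaling (-0.031 to 0.17), Cacna1c 1370451_a_at 0.113 without the pair and 0.113 without both sets (-0.15 to 0.113), Pln 1384689_at 0.025 in both (-0.063 to 0.025) and Camk2d 1368833_at -0.097 to 0.43 with 1 array left out. In that arm Camk2g 1381936_at was -0.036 on the deposited scale, -0.0027 with median scaling, -0.0043 with a pseudocount of 64 and -0.89 without the pair and without both sets (-0.89 to 0.90). With ischemia, Atp2a2 1398862_at was 0.11 without the outlying array and 0.24 without both sets (-1.52 to 0.11), Camk2d 1371263_a_at 0.0050 with a pseudocount of 4 (-0.38 to 0.38) and Camk2d 1368833_at -0.38 to 1.03 with 1 array left out.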
